A study of Homo sapiens with 6 samples.

Results

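The genes described here are 40 genes of the response to amino acid shortage and endoplasmic reticulum stress that works through the transcription factor ATF4, including cytosolic tRNA synthetases. They were chosen by name, through current or older symbols (*AARS1* for *AARS*, for example), among the 63677 genes of the count table. All 40 were found, and 37 of them were among the 12507 genes with enough counts to be tested. By role, 6 are transcription factors of the response, 7 are stress effectors and feedback regulators, 8 are enzymes of amino acid synthesis and folate metabolism, 6 are amino acid transporters, and 13 are cytosolic tRNA synthetases together with the tRNA export receptor *XPOT*.

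RNA was sequenced from LoVo, an established human colorectal cancer cell line, after transfection with a combination of both siRNAs against the long noncoding RNA *SNHG15*, or with a negative control siRNA that the labels call scramble. Both conditions received siRNA at 25 nM with a lipid reagent and were grown for 48 h, and each was sequenced in 3 libraries that the study describes as biological replicates. No library came from untransfected cells, so each value compares siRNA with siRNA. The comparison asks which of these genes differed in mRNA level after *SNHG15* was depleted.

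In the integrated stress response, as it is known, kinases that sense uncharged tRNA, unfolded protein in the endoplasmic reticulum, double-stranded RNA or heme shortage phosphorylate the initiation factor eIF2. Most translation then falls, while the *ATF4* mRNA, whose upstream reading frames normally hold it back, is translated more. ATF4 pairs with C/EBP family proteins on elements with the core TGATGCAA and raises genes for amino acid uptake and synthesis and for the loading of tRNAs, together with *DDIT3* (CHOP), *ATF3* and *TRIB3*, which take part in cell death and feedback. The mRNA level of *ATF4* is only part of this control, and no protein or eIF2 phosphorylation was measured in the data used here.

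Library totals ran from 3446922 to 10256710 counts, and scramble replicate 3 had the lowest total. Levels are given as CPM, a gene's count relative to the scaled total of its library. *SNHG15* (chromosome 7, 45022618 to 45026560, minus strand, GRCh37) was at 289.8, 276.8 and 261.3 CPM in scramble replicates 1 to 3 and at 77.2, 83.1 and 87.2 CPM in the siRNA replicates, a log2 fold change of -1.74 (SE 0.12, n = 3 and 3, edgeR adjusted p = 2.62e-05). The conditions did not overlap, and the exact two-sided permutation p was 0.1, the smallest that 3 against 3 libraries can give. Of 12 markers of colon epithelium listed for a check of the cell line, 8 were under 1 CPM in every library, *EPCAM*, *KRT20* and *VIL1* among them, while *CDH1*, *KRT8*, *KRT18* and *CDX2* were at 1 CPM or more in all 6. The summed level of the 12 markers was 103 to 110 CPM in the scramble and 107 to 117 CPM in the siRNA libraries. Of 12 markers of other cell types 11 were matched, and their sum stayed between 0.234 and 1.39 CPM, so 8 usual markers of the labelled cell type were near 0 and so were those of the other types.

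To show the element through which ATF4 is known to act, promoter windows from RefSeq (GRCh38.p14, 250 bases before to 50 bases after each annotated start) were searched on both strands for TGATGCAA and for the looser TGATGNAA, which includes every TGATGCAA. Windows were given for 32 of the 40 genes. TGATGCAA was found in 10 of these 32 genes (31.2%), against 1.08% of all 27305 genes in the table, and TGATGNAA in 15 of 32 (46.9%) against 4.46% of all genes. These members were listed as genes of this response in the first place, so the share describes the list and is no test of it. The windows below are shown because they carry the element upstream of the start of genes from 5 roles. Each gives the element in capitals with 14 bases on either side, 5′ to 3′ on the strand of the gene, and TTGCATCA is TGATGCAA read from the other strand.
CEBPG, chr19:33374057-33374092, plus strand: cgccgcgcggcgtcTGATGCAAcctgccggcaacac
CHAC1, chr15:40953248-40953283, plus strand: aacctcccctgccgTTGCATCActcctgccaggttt
SLC1A5, chr19:46784890-46784925, minus strand: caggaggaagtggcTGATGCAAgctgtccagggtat
AARS, chr16:70289672-70289707, minus strand: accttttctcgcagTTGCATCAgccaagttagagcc
ATF3, chr1:212565202-212565237, plus strand: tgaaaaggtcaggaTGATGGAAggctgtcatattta
ASNS, chr7:97872455-97872490, minus strand: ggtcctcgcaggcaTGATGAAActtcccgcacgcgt
GARS, chr7:30594831-30594866, plus strand: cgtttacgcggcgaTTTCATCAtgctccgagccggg

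In these windows the element began 42 bases before the start of *CEBPG*, 209 before *CHAC1*, 97 before *SLC1A5*, 187 before *AARS*, 191 before *ATF3*, 68 before *ASNS* and 33 before *GARS*. *SLC1A4*, *CARS*, *IARS*, *MARS*, *NARS* and *TARS* held TGATGCAA closer to the start or just after it, and *SLC3A2* and *SLC7A1* held the looser form. The windows of *ATF4* and *DDIT3* held neither, which says only that these letters were not in the bases read.

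Across the list, 2 of the 37 tested genes fell with the *SNHG15* siRNAs, *DDIT3* and *ATF3*, which is 5.41% against 2.23% of all genes tested. None rose by edgeR's quasi-likelihood test, against 3.13% of all genes tested. At an unadjusted p under 0.05, 10 of the 37 genes (27.0%) were lower, against 10.5% of all genes tested, and 1, *LARS*, was higher, against 12.0%. DESeq2 called 6 of them lower, *ATF3*, *ATF4*, *CEBPG*, *DDIT3*, *PHGDH* and *SESN2*, and 0 higher, while it called 2.9% of the 13118 genes to which it gave an adjusted p lower and 2.9% higher. The fitted log2 fold change was below 0 in 33 of 37 genes (89.2%), against 49.9% of all genes tested, with a median of -0.33 against 0.00 and a range from -1.36 to 0.45. The 3 siRNA libraries lay below all 3 scramble libraries in 7 of 37 genes (18.9%), against 14.1% of all genes, and above them in 1, *LARS*, against 14.7% of all genes. In bulk RNA, fewer cells of a kind and less mRNA in each cell cannot be told apart.

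**Figure D1:**
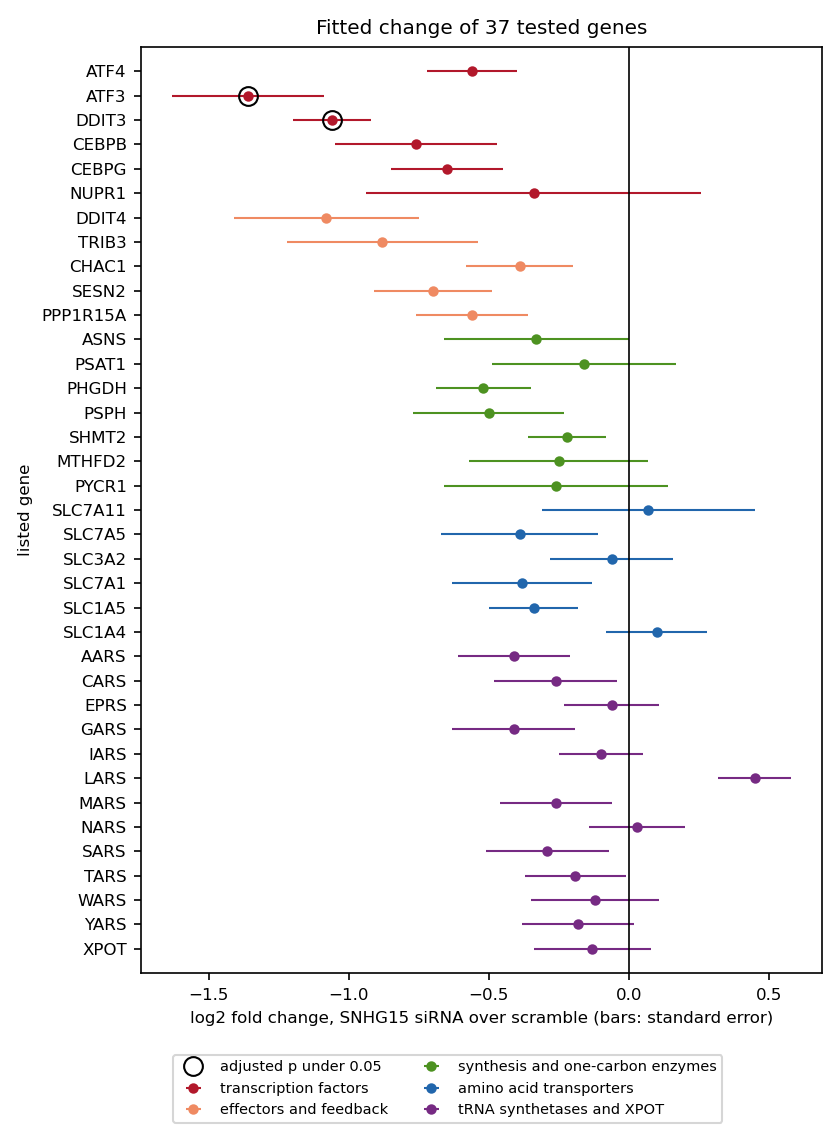
Fitted log2 fold change (SNHG15 siRNA over scramble, n = 3 and 3) of the 37 tested genes, coloured by role, with bars for the standard error and a ring around the 2 genes past the adjusted threshold. Of 37 points, 33 lie to the left of 0, and the transcription factors and effectors lie farther left (medians -0.71 and -0.70) than the enzymes (-0.26), transporters (-0.20) and synthetases (-0.18).

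Both genes that fell were transcription factors. All 6 had a fold change below 0, with a median of -0.71, 5 of 6 were lower at an unadjusted p under 0.05 (10.5% of all genes), and in 4 of 6 the siRNA libraries lay below the scramble libraries (14.1% of all genes). *DDIT3* (ENSG00000175197, chromosome 12, 57910371 to 57915520, minus strand, GRCh37), the CHOP factor linked to cell death under lasting stress, was at 127.0, 146.0 and 117.9 CPM in scramble replicates 1 to 3 and at 53.9, 63.1 and 71.2 CPM in the siRNA replicates. The conditions stayed apart, and the gene fell by 1.06 on the log2 scale (SE 0.14, n = 3 and 3, edgeR adjusted p = 0.00249), or 2.08-fold. It remained past the threshold in every alternative fit tried and without each library in turn, at fold changes between -1.16 and -0.96.

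*DDIT3* lies on the strand opposite *MARS*, and the annotation places 219 of the 903 bases of its main transcript within *MARS* exons. Whether the counting used strand is not given in the sources used here, so how reads from that stretch were assigned is not known. A gene on the same strand as *DDIT3*, ENSG00000285133, covers 105 bases of its main transcript and has no row in the counts. *MBD6*, on the opposite strand, overlaps 58 exonic bases of *DDIT3* outside the main transcript. The *MARS* count over all libraries was 12629 and the *DDIT3* count 4376. *MARS* itself had a log2 fold change of -0.26 (SE 0.20, edgeR adjusted p = 0.473).

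*ATF3* (ENSG00000162772, chromosome 1, 212738676 to 212794119, plus strand), a repressor and activator induced by many stresses, showed the largest fitted change on the list. It was at 46.1, 60.2 and 40.5 CPM in the scramble replicates and at 9.57, 22.9 and 24.9 CPM in the siRNA replicates. The conditions did not overlap, and siRNA replicate 1 was 2.52-fold below the highest siRNA library. *ATF3* fell by 1.36 on the log2 scale (SE 0.27, n = 3 and 3, edgeR adjusted p = 0.0136). Without scramble replicate 1 the adjusted p was 0.0501 and without scramble replicate 2 it was 0.0947, with fold changes of -1.42 and -1.18.

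*ATF4* (ENSG00000128272, chromosome 22, 39915700 to 39918688, plus strand) was at 233.1, 291.8 and 184.5 CPM in the scramble replicates and at 140.9, 181.2 and 160.4 CPM in the siRNA replicates. The lowest scramble library stood just above the highest siRNA library. The log2 fold change of -0.56 (SE 0.16, n = 3 and 3) did not pass the threshold (edgeR adjusted p = 0.0631, unadjusted p = 0.00451), and it ranged from -0.71 to -0.38 when single libraries were left out. DESeq2 gave -0.57 with an adjusted p of 0.0235. The named processed pseudogenes of *ATF4* held at most 15 counts each over all libraries, against 9175 counts for *ATF4*.

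The C/EBP partners of ATF4 had similar values. *CEBPG*, a dimer partner of ATF4, had a log2 fold change of -0.65 (edgeR adjusted p = 0.0816) with conditions that did not overlap. *CEBPB*, which encodes C/EBP beta, had -0.76 (edgeR adjusted p = 0.139), and its conditions overlapped, because siRNA replicate 2 at 296.0 CPM stood above scramble replicate 3 at 271.6 CPM. *NUPR1*, a small stress-induced chromatin protein, was too low to read, between 0 and 3.88 CPM in all libraries.

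**Figure D2:**
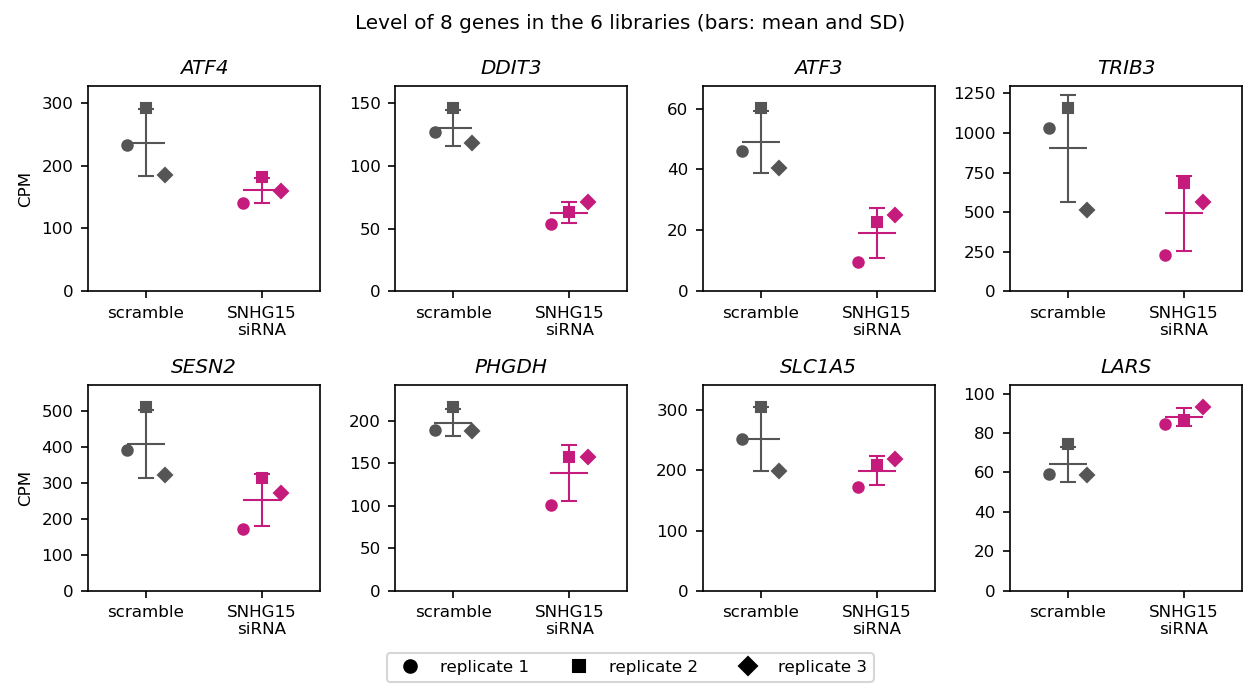
Level in CPM of 8 genes in each library, with scramble in grey, SNHG15 siRNA in pink, a marker shape for each replicate number, and bars for the mean and SD (n = 3 for each condition). DDIT3 and ATF3 show a gap between conditions, TRIB3 ranges from 227.1 to 685.4 CPM within the siRNA libraries, and LARS is higher in all 3 siRNA libraries.

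Among the effectors and feedback regulators, 5 of 7 genes were tested and none passed the threshold, although 4 of the 5 were lower at an unadjusted p under 0.05, against 10.5% of all genes tested, and their fitted changes centred on a median of -0.70. The smallest p belonged to *SESN2* (ENSG00000130766, chromosome 1, 28586029 to 28609002, plus strand), which encodes sestrin 2, an inhibitor of mTORC1 signaling when leucine is short. It was at 391.4, 511.3 and 323.6 CPM in the scramble replicates and at 172.7, 313.0 and 271.4 CPM in the siRNA replicates. The conditions did not overlap, the nearest values being 313.0 and 323.6 CPM, and the log2 fold change was -0.70 (SE 0.21, n = 3 and 3, edgeR adjusted p = 0.0681).

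*TRIB3* (ENSG00000101255, chromosome 20, 343479 to 378203, plus strand), a pseudokinase that binds ATF4 and limits its activity, is described here as the most abundant listed gene for its length, and it was chosen after its values were seen. It was at 1032.7, 1157.5 and 515.9 CPM in the scramble replicates and at 227.1, 685.4 and 561.0 CPM in the siRNA replicates. The conditions overlapped, since 2 siRNA libraries stood above scramble replicate 3, and the log2 fold change was -0.88 (SE 0.34, edgeR adjusted p = 0.146). Within the scramble libraries alone its level spanned 2.24-fold, and within the siRNA libraries 3.01-fold.

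*PPP1R15A*, which encodes the stress-induced subunit (GADD34) that brings a phosphatase to eIF2, had a log2 fold change of -0.56 (edgeR adjusted p = 0.129). *CHAC1*, which breaks down glutathione, had -0.39 (edgeR adjusted p = 0.26). *DDIT4*, which encodes the mTORC1 inhibitor REDD1, had -1.08 (edgeR adjusted p = 0.0738) but rested on 0.97 to 3.98 CPM. *VLDLR* and *STC2* are listed at 0 in every library. Since 8 usual markers of the labelled cell type were also near 0 in this table, a 0 here is not read as a level.

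The enzymes of serine, proline, asparagine and folate metabolism all had fold changes below 0 in the 7 of 8 genes that were tested, with a median of -0.26. None passed the threshold, and 1, *PHGDH*, was lower at an unadjusted p under 0.05 (14.3%, against 10.5% of all genes tested). This gene (ENSG00000092621, chromosome 1, 120191034 to 120286841, plus strand) encodes the enzyme of the entry step of serine synthesis. It was at 189.0, 215.7 and 187.2 CPM in the scramble replicates and at 100.1, 157.2 and 156.8 CPM in the siRNA replicates. The conditions did not overlap, and the log2 fold change was -0.52 (SE 0.17, n = 3 and 3, edgeR adjusted p = 0.0851).

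The other serine genes were less clear of the spread. *PSPH*, the last enzyme of serine synthesis, had -0.50 and *PSAT1*, the aminotransferase between these steps, had -0.16, both with overlapping conditions. *ASNS*, which makes asparagine and is a classical ATF4 target, ran from 213.2 to 511.2 CPM in the scramble and from 136.3 to 380.2 CPM in the siRNA libraries, with a log2 fold change of -0.33 (SE 0.33, edgeR adjusted p = 0.602). The mitochondrial folate enzymes *SHMT2* and *MTHFD2* had -0.22 and -0.25. *PYCR1*, of proline synthesis, was under 4 CPM, and *ALDH1L2*, with 2 counts over all libraries, was not tested.

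None of the 6 amino acid transporters passed the threshold or was lower at an unadjusted p under 0.05, and the median log2 fold change was -0.20. *SLC1A5* (ENSG00000105281, chromosome 19, 47278140 to 47291851, minus strand), the glutamine carrier ASCT2, had the smallest p, with 252.2, 305.4 and 199.9 CPM in the scramble replicates and 172.2, 208.6 and 219.1 CPM in the siRNA replicates. Scramble replicate 3 stood below 2 of the siRNA libraries, and the log2 fold change was -0.34 (SE 0.16, edgeR adjusted p = 0.223). *SLC7A5* and *SLC3A2*, which together form the leucine exchanger LAT1-CD98, had -0.39 and -0.06. *SLC7A1*, the cationic amino acid carrier, had -0.38. *SLC7A11*, the cystine carrier, and *SLC1A4*, the neutral carrier ASCT1, had 0.07 and 0.10, with standard errors of 0.38 and 0.18.

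None of the 12 cytosolic synthetases on the list, nor *XPOT*, passed the threshold. Only *LARS* was higher at an unadjusted p under 0.05, against 12.0% of all genes tested. The median over the 13 genes was -0.18, and 11 of 13 had a fold change below 0. The lowest values belonged to *AARS* (alanine) and *GARS* (glycine), both at -0.41, followed by *SARS* (serine) at -0.29 and by *MARS* (methionine) and *CARS* (cysteine) at -0.26. *NARS* (asparagine) was at 0.03. *GARS* ran from 359.2 to 632.8 CPM in the scramble and from 258.3 to 446.7 CPM in the siRNA libraries, so that its conditions overlapped (SE 0.22, edgeR adjusted p = 0.282).

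*LARS* (ENSG00000133706, chromosome 5, 145490129 to 145562259, minus strand), the leucine synthetase, went the other way. It was at 59.4, 74.4 and 58.7 CPM in the scramble replicates and at 84.7, 86.4 and 93.1 CPM in the siRNA replicates. All 3 siRNA libraries stood above the scramble libraries and differed among themselves by only 1.10-fold. The log2 fold change of 0.45 (SE 0.13, n = 3 and 3) had an edgeR adjusted p of 0.0667. It passed the threshold in 1 of 6 alternative fits of all libraries, upper-quartile scaling (edgeR adjusted p = 0.0473). That scaling called 515 genes higher and 230 lower. Of 6 fits without a single library it passed in 1, without siRNA replicate 1 (edgeR adjusted p = 0.0417).

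Read per kilobase of the main transcript, the levels in the scramble libraries put *TRIB3* (382.9 CPM per kb), *PPP1R15A* (220.2) and *CEBPB* (202.3) at the top and *LARS*, at 13.5 CPM per kb, below the other synthetases of the list. *GARS*, at 201.4 CPM per kb, was the most abundant synthetase of the list, followed by *SARS* at 162.1 and *YARS* at 154.5. The SD between scramble libraries of *GARS* in CPM was 137.1 on a mean of 490.7. Scramble replicate 2 was the highest and replicate 3 the lowest for all of these neighbours, so this SD does not judge their order within a library. *GARS* (2437 bases) was at 480.1, 632.8 and 359.2 CPM in scramble replicates 1 to 3, and *YARS* (2443 bases) at 360.2, 472.8 and 299.1 CPM. The order was not tested.

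The listed genes shared an order of the libraries within each condition. This order was noticed after the values were seen, and the counts describe it without a test. Scramble replicate 3 was the lowest scramble library in 36 of the 37 tested genes (97.3%), against 36.4% of all genes tested. Scramble replicate 2 was the highest in 32 of 37 (86.5%), against 35.2% of all genes. Among the siRNA libraries, replicate 1 was the lowest in 36 of 37 (97.3%), against 42.0% of all genes, and it was the lowest of all 6 libraries in 31 (83.8%), against 27.7%. All these places within a condition were held together in 31 of the 37 genes (83.8%), against 11.4% of all genes and 13.5% of the 6714 genes at a mean of 20 CPM or more. Over all genes tested, siRNA replicate 1 also stood apart from the other siRNA libraries. On the axis of largest variance between libraries (46% of the variance) it was at 39.08, and siRNA replicates 2 and 3 were at 14.3 and 11.49. The part of this wider difference in the order of the listed genes was not tested.

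**Figure D3:**
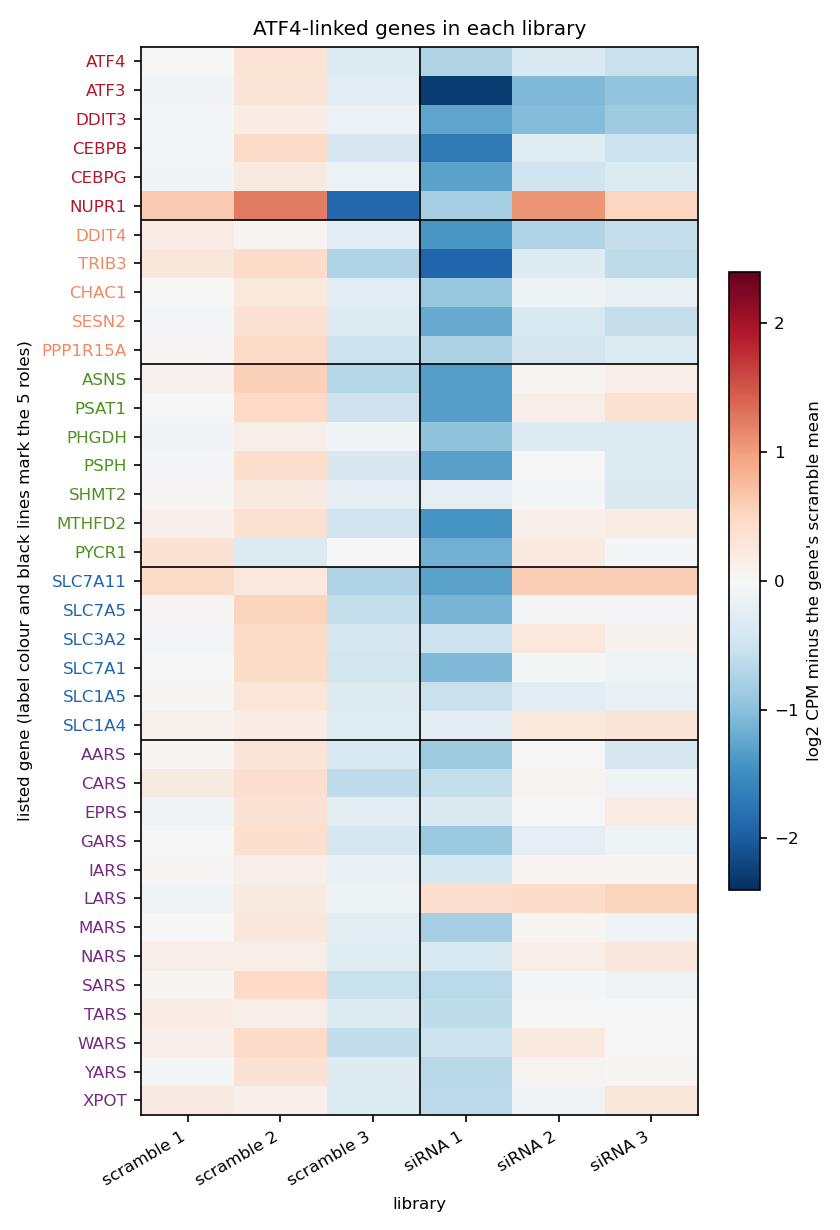
Heat map of log2 CPM in each library minus the gene's mean over the 3 scramble libraries (0.5 CPM added before the log), for the 37 tested genes grouped by role, with red above and blue below the scramble mean. The column of siRNA replicate 1 is blue in every row but LARS, scramble replicate 2 is mostly red, scramble replicate 3 is blue in every row or, for PYCR1, near 0, and siRNA replicates 2 and 3 are near 0 for most enzymes, transporters and synthetases.

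The order was wide as well as shared. Relative to each gene's scramble mean, the median over the 37 genes was 0.02, 0.33 and -0.32 on the log2 scale in scramble replicates 1 to 3, and -0.85, -0.01 and -0.08 in siRNA replicates 1 to 3. The 2 latter siRNA libraries thus had medians within the scramble range. The median gene of the list spanned 1.58-fold between its lowest and highest scramble library and 1.73-fold between its siRNA libraries, against 1.25-fold and 1.31-fold over all genes tested.

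By role, the median in siRNA replicates 1, 2 and 3 was -1.27, -0.41 and -0.53 for the transcription factors and -1.21, -0.36 and -0.56 for the effectors. It was -1.31, 0.06 and -0.02 for the enzymes, -0.79, 0.12 and 0.03 for the transporters, and -0.60, 0.04 and 0.02 for the synthetases with *XPOT*. The medians of the transcription factors and effectors were therefore below the scramble mean in all 3 siRNA libraries, while those of the other roles were below it in replicate 1 and near it in the others. Single genes departed from these medians, and *NUPR1* was above its scramble mean in siRNA replicates 2 and 3. *SNHG15* itself spanned only 1.13-fold between the siRNA libraries, with replicate 1 lowest at 77.2 against 83.1 and 87.2 CPM. Replicate 1 was the lowest siRNA library in 42.0% of all genes tested. A link between the *SNHG15* level and the order of the listed genes was not tested.

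**Figure D4:**
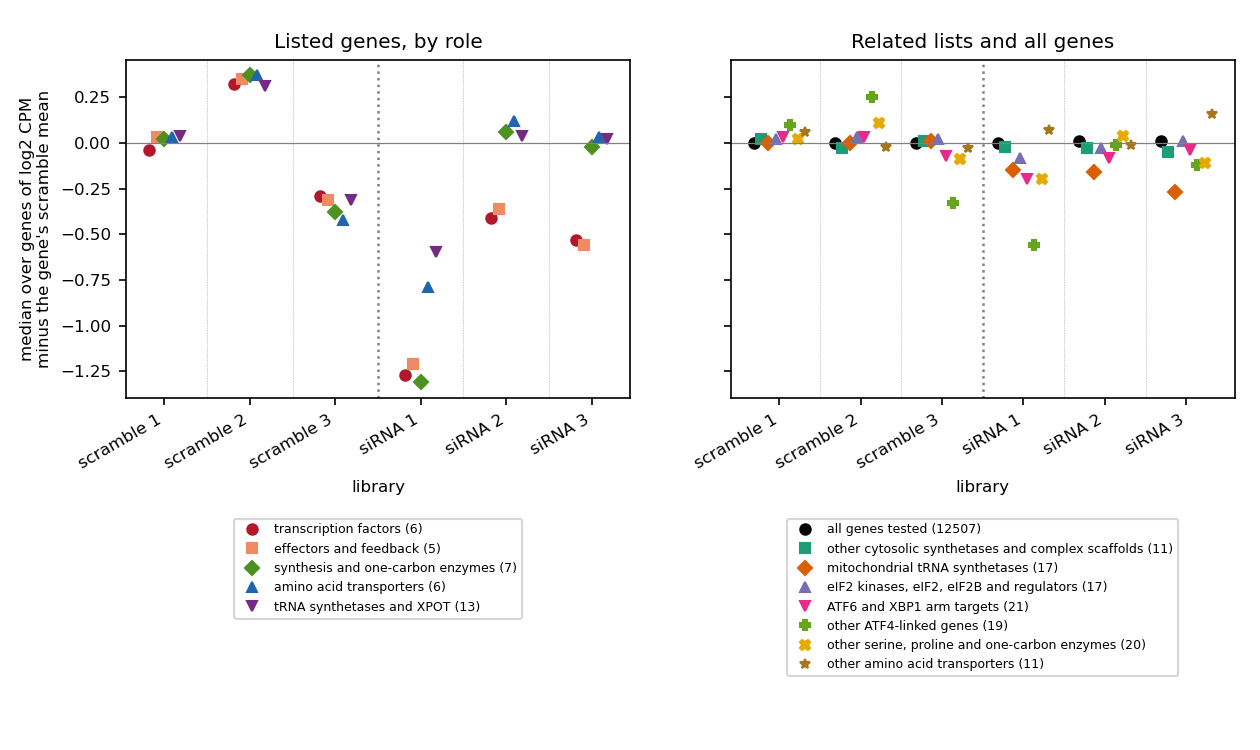
Median over the genes of a list of log2 CPM minus the gene's scramble mean (0.5 CPM added before the log), by library, for the 5 roles of the listed genes (left) and for related lists and all genes tested (right); the number of genes is in the legend. All 5 roles are near 0 in scramble replicate 1, above it in scramble replicate 2 and lowest in siRNA replicate 1, and on the right the other ATF4-linked genes follow the same order while the other cytosolic synthetases stay near 0.

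Leaving out libraries moved the list accordingly. Without siRNA replicate 1, 22 of 37 genes had a fold change below 0 and the median was -0.12. Without scramble replicate 2 these were 26 of 37 and -0.11, and without scramble replicate 3 they were 36 of 37 and -0.50. With both scramble replicate 3 and siRNA replicate 1 left out, an alternative added after the data were seen, the median was -0.30 with 32 of 37 genes below 0. That fit called 8 listed genes lower, *ATF3*, *ATF4*, *CEBPB*, *CEBPG*, *DDIT3*, *PPP1R15A*, *SESN2* and *TRIB3*, and 2.5% of all 12704 genes it tested. These libraries were picked for being the lowest of their condition in the listed genes themselves, so leaving them out narrows the spread of these genes by construction, and the larger number of calls is no support for a change.

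Depth moved with part of this order, since scramble replicate 3 was the least and scramble replicate 2 the most deeply counted library, but siRNA replicate 1 was neither the least nor the most deeply counted of its condition. The other cytosolic synthetases, counted in the same libraries, had scramble replicate 3 as the lowest scramble library in 1 of 11 genes. The part of depth in the order of the libraries was not tested.

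The related genes outside the list show how far the pattern reached. Of 136 such genes in 7 lists, 116 were tested. Past the adjusted threshold, 2 rose (1.72%, against 3.13% of all genes tested) and 4 fell (3.45%, against 2.23%), which is near the background. At an unadjusted p under 0.05, 27 were lower (23.3%, against 10.5% of all genes tested) and 6 higher (against 12.0%). With no overlap of the conditions, 27 were lower (23.3%, against 14.1%) and 8 higher (against 14.7%). The closest set holds 23 other genes linked to ATF4, of which 19 were tested, with a median of -0.26. None passed the threshold in edgeR. At an unadjusted p under 0.05, 6 were lower (31.6%, against 10.5% of all genes tested) and 1 higher (against 12.0%). The places of the libraries given above were held together in 13 of these 19 genes (68.4%). *TNFRSF10B*, a death receptor gene regulated by CHOP, had the smallest p, at a log2 fold change of -0.55 (SE 0.17, edgeR adjusted p = 0.0794). The order was not confined to genes linked to ATF4. The places were held together in 6 of 21 genes of the ATF6 and XBP1 list, against 11.4% of all genes tested. The same held for 6 of 20 other enzymes of serine, proline and folate metabolism. For the other amino acid transporters the count was 2 of 11 (18.2%), not clearly above the 11.4% of all genes tested with so few genes. For the eIF2 list it was 1 of 17 (5.88%), below that share.

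In the 12 other cytosolic synthetase and scaffold genes of the multi-synthetase complex, 11 were tested and none of the 11 held these places together. Their median was 0.04, and the median gene spanned 1.19-fold between scramble libraries. *RARS1*, the arginine synthetase, rose from 34.1, 27.4 and 30.2 CPM in the scramble to 52.8, 44.3 and 49.7 CPM in the siRNA replicates, a log2 fold change of 0.68 (SE 0.15, edgeR adjusted p = 0.0189). No other gene of this list passed, and the call of *RARS1* was lost without any single scramble library (adjusted p up to 0.105).

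The 17 mitochondrial tRNA synthetases, all tested, had a median of -0.19 and held the places together in 1 of 17. At an unadjusted p under 0.05, 6 were lower (35.3%, against 10.5% of all genes tested) and 0 higher. With no overlap of the conditions, 8 were lower (47.1%, against 14.1%) and 1 higher (against 14.7%). Their medians in siRNA replicates 1 to 3 were -0.15, -0.16 and -0.27. *EARS2*, the mitochondrial glutamate synthetase, fell from 48.2, 39.7 and 46.6 CPM to 30.8, 27.3 and 26.5 CPM, a log2 fold change of -0.66 (SE 0.14, edgeR adjusted p = 0.02). *LARS2*, the mitochondrial leucine synthetase, fell by 0.54 on the log2 scale (SE 0.14, edgeR adjusted p = 0.0399). The call of *EARS2* was lost without any single scramble library or siRNA replicate 2 (edgeR adjusted p up to 0.102). That of *LARS2* was lost without these or siRNA replicate 3 (up to 0.128), and with upper-quartile scaling, 10 counts in every library or the replicate block.

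Upstream of ATF4, none of the 17 genes for eIF2 kinases, eIF2 and eIF2B subunits and their regulators passed the threshold in edgeR, and their median was -0.01. At an unadjusted p under 0.05, 3 were lower (17.6%, against 10.5% of all genes tested) and 1 higher (against 12.0%). *EIF2AK4*, which encodes GCN2, the kinase that senses uncharged tRNA, had the smallest p. Its levels were 58.9, 59.3 and 49.0 CPM in the scramble and 110.5, 81.0 and 66 CPM in the siRNA replicates, which did not overlap. The log2 fold change was 0.61 (SE 0.18, edgeR adjusted p = 0.0604), opposite in sign to that of *ATF4*.

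The list for the other arms of the endoplasmic reticulum stress response, ATF6 and XBP1, held 22 genes, of which 21 were tested, with a median of -0.11. Fold changes were below 0 in 14 of 21 (66.7%, against 49.9% of all genes tested) and above 0 in 7. At an unadjusted p under 0.05, 4 were lower (19.0%, against 10.5%) and 1 higher (against 12.0%). *CALR*, the chaperone calreticulin, fell by 0.55 on the log2 scale (SE 0.14, edgeR adjusted p = 0.0382), a call that was lost with 10 counts in every library and without any single library other than siRNA replicate 1 (adjusted p up to 0.149). *PDIA6*, a disulfide isomerase, rose by 1.89 (SE 0.35, edgeR adjusted p = 0.01) from a low level of 3.33 to 4.10 CPM to between 8.46 and 22.9 CPM, and lost its call without scramble replicate 2 (adjusted p = 0.0757). *PDIA3* and *PDIA4* of the same list had scramble means of 394.5 and 272.6 CPM. Since 8 usual markers of the labelled cell type were near 0 in this table, the low level of *PDIA6* may not be its true level, and its rise carries the same limit. *HSPA5*, the chaperone BiP and the usual marker of this response, had 998.5 to 1122.6 CPM in the scramble and 775.0 to 1006.5 CPM in the siRNA libraries, with a log2 fold change of -0.22 (edgeR adjusted p = 0.331), and was named after its value was seen.

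Among 23 other enzymes of serine, proline and folate metabolism, 20 were tested, with a median of -0.07. At an unadjusted p under 0.05, 5 were lower (25.0%, against 10.5% of all genes tested) and 1 higher (against 12.0%). With no overlap of the conditions, 5 were lower (25.0%, against 14.1%) and 1 higher (against 14.7%). *MTHFS*, which recycles folinate, fell by 0.51 on the log2 scale (SE 0.14, edgeR adjusted p = 0.0464), a call that was lost without any single library other than siRNA replicate 1 (adjusted p up to 0.198), and with upper-quartile scaling, 10 counts in every library or the replicate block. Among 22 other amino acid transporters, 11 were tested, with a median of 0.05. None passed in edgeR. At an unadjusted p under 0.05, 1 was lower (9.09%, against 10.5% of all genes tested) and 1 higher (against 12.0%). The smallest p there belonged to *SLC38A7*, a lysosomal glutamine carrier, at 0.67 (SE 0.21, edgeR adjusted p = 0.0835).

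The fold changes were also set beside the promoter element, without a test. Among the 10 genes with TGATGCAA in their window, 0 passed the threshold and the fold changes centred on -0.26. Among the 20 tested genes whose windows lacked it, 2 passed, both lower (10.0%), and the fold changes centred on -0.40. Of all genes tested, 2.23% passed as lower, so 0 of 10 is near that share. Most genes with TGATGCAA were synthetases or transporters, the roles with medians nearest 0 (-0.18 and -0.20). Role and element therefore cannot be told apart here. *DDIT3*, whose window held neither form, and *ATF3*, whose window held the looser form printed above, were the genes that fell.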

How the data were processed

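Both siRNAs together were compared with the negative control siRNA, 3 libraries each. The authors deposited counts per gene, not normalized. The submitters' processing notes name STAR, featureCounts and hg19, while the study's methods name bowtie2 and hg19 for alignment and DESeq2 for the test. The library kit was stranded. The annotation, strand setting and handling of multiply placed reads in the counting are not given in the sources used here. The labels name TRIzol for RNA extraction and the methods a Maxwell kit.

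The count table was fitted in R 4.3.3 by edgeR 4.0.16 with filterByExpr (minimum count 10, total 15), TMM scaling and the quasi-likelihood test of siRNA against scramble without a block, with Benjamini-Hochberg adjustment over all 12507 genes tested and a threshold of 0.05. Of 63677 genes, 23675 had counts. CPM used the counts of tested genes times the TMM factor, with 0.5 CPM added before logs. Standard errors were the fold change divided by the square root of the F statistic. Positions and transcript lengths came from GENCODE release 44 on GRCh37 (no main transcript was marked for *DDIT4*), and promoter windows from RefSeq. 8012 identifiers had no entry in that annotation. The steps were tested on simulated data. Alternatives were RLE and upper-quartile scaling, DESeq2 1.42.0, no filter, at least 10 counts in every library, the replicate number as a block, and leaving out libraries.

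Members and lists were chosen with earlier results of these data known. Values in every library are given for members past the threshold, for *ATF4*, and for the member with the smallest p of each role where none passed. From each related list the genes past the threshold are named, at most 5, or the gene with the smallest p.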

Additional observations from a re-analysis of the deposited data

How the results depend on the processing

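*DDIT3* passed the threshold in each alternative fit of all 6 libraries and without each single library, and *ATF3* in each fit of all 6 libraries and in 4 of 6 fits without a single library. Scaling by RLE or upper quartile moved the median of all genes by at most 0.04. No filter gave 1312 genes past the threshold over all genes (671 in the report), 13 listed genes lower and 22 related genes past it (6 in the report). DESeq2 gave 6 listed genes lower and 12 related genes past the threshold. A minimum of 10 counts in every library left 3 related genes past it. Upper-quartile scaling called 1 listed gene, *LARS*, higher. The causes were not tested.

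Between same-numbered libraries, deviations from the condition means correlated at -0.07, 0.155 and -0.042. With 3 libraries a condition this cannot settle whether they were prepared in pairs, which the sources used here do not give. With the replicate block, 543 genes passed the threshold, 3 listed genes were lower (*ATF3*, *DDIT3* and *SESN2*) and *SLC7A11* turned to -0.04.

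Leaving out libraries, the pair scramble replicate 3 and siRNA replicate 1 included, gave 139 (without scramble replicate 2) to 812 (without siRNA replicate 1) genes past the threshold, 0 to 1 listed genes higher, 1 to 8 lower, and 0 (without scramble replicate 2) to 9 related genes past it. Without scramble replicate 1 the listed genes lower were 1, and without scramble replicate 3 they were 4. The fold change reached or crossed 0, within these ranges, for *NUPR1* (-0.85 to 0.33), *ASNS* (-0.60 to 0.00), *PSAT1* (-0.46 to 0.20), *MTHFD2* (-0.50 to 0.10), *PYCR1* (-0.57 to 0.09), *SLC7A11* (-0.20 to 0.45), *SLC3A2* (-0.25 to 0.19), *SLC1A4* (-0.02 to 0.25), *EPRS* (-0.19 to 0.13), *IARS* (-0.18 to 0.04), *NARS* (-0.10 to 0.19), *WARS* (-0.36 to 0.13), *YARS* (-0.32 to 0.02) and *XPOT* (-0.37 to 0.07). None of these passed the threshold in the fit of the report. With 3 libraries a condition, p-values measure only the spread between these libraries.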
